A study of Mus musculus with 18 samples.

Results

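A set of 60 probe sets, each of a different gene, was picked for their behaviour during the first days of embryoid body (EB) differentiation: the mean level in TKO EBs at day 4 lay at least 1.5 above that in TKO ESCs on the log2 scale, while the wt mean at day 4 lay at most 0.3 above that of wt ESCs. Of 35512 probe sets on the array, 21789 carried a single gene symbol, and 69 of these passed both limits. A further 9 were left out by name (6 of Adgrl2 and 1 each of Nefl, Otx2 and Thbs1), which leaves 60 members. Of the members, 2 (Mecom and Rasef) have another single-symbol probe set that did not pass both limits, and their values are from the probe set that did. All 60 were kept in the fit reported here, which used no filter on low values. They were chosen by the means of 4 groups, wt and TKO at day 0 and at day 4. Any difference that holds one of these arrays is therefore a description here and was not tested.

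The samples were mouse J1 cells of strain 129Sv/Jae, grown as undifferentiated ESCs (day 0) or as hanging-drop EBs taken at day 4 and at day 16. The 3 genotypes were wild type (wt), Dnmt1-/-, and TKO, a triple knockout without Dnmt1, Dnmt3a and Dnmt3b. Each genotype is 1 ESC line, so a property of the line and an effect of the genotype cannot be told apart. Each of the 9 groups had 2 arrays, labelled biological replicates 1 and 2, that is 18 Affymetrix GeneChip Mouse Gene 1.0 ST arrays in all. An EB is a mixture of cell types, and in such a bulk sample fewer cells of a type and less RNA per cell cannot be told apart.

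In order of the TKO difference, the members are Irgm1, Nefm, Sema6a, Ppp4r4, Pim2, Igfbp3, Epha1, Pxdc1, Vmn1r14, Lpar4, Itga1, Calcr, Nnat, Gbp3, Ccn1, Dusp6, Rgs2, Mmp25, Erap1, Gpm6a, Mir363, Galnt3, Kcnj3, Chst15, Anxa3, St6gal2, Ebf1, Mir106a, Id4, Tex13b, Nes, Rasef, Cyp4a12b, Dcaf12l1, Glrx, Grik3, Rab25, Exoc3l, Cldn6, Heph, Magel2, Adamts15, Fam171b, Gbp2b, Adgrl4, Sall2, Plagl1, Lmo4, Gabra3, Cysltr1, Gatm, Dhrs3, Mal2, Xlr, Cldn7, Tspan8, Mecom, Sema3e, Met and Spon1. The working name of the set was genes rising by day 4 only in TKO, and the data do not bear out the word only. In Dnmt1-/- cells, which the selection did not use, the mean at day 4 was above that at day 0 for 57 of the 60 members. The same held for 46.9% of all probe sets. In the test given below 6 members were called higher, and more in a fit with the replicate number as a block. The median rise of the members was 1.08 on replicate 1 of day 4 and 0.41 on replicate 2.

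As background, Dnmt1 copies methylation of CpG dinucleotides onto newly made DNA strands, whereas Dnmt3a and Dnmt3b set it at new places, so Dnmt1-/- cells keep the de novo enzymes and TKO cells have none of the 3. ESCs that leave the naive state pass through a formative and then a primed epiblast stage before the germ layers arise. In EBs this progression runs beside the formation of primitive endoderm, and ERK signalling downstream of FGF receptors drives it, with phosphatases such as Dusp6 as feedback inhibitors.

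Of the members, 10 lie on the X chromosome (16.7% of the 60, against 3.72% of all 19853 placed genes on the array): Pim2, Lpar4, Mir363, Mir106a, Tex13b, Dcaf12l1, Heph, Gabra3, Cysltr1 and Xlr. Mir106a and Mir363 are the first and the last of the 6 miRNA hairpins of one cluster within chrX:52741693-52742567 (GRCm38.p6). The mature miRNAs below are shown to tell the members apart from their neighbours in the cluster by seed, bases 2 to 8, which is in capitals. The sequences are those of RefSeq. The array measures the transcript around a hairpin and not the mature RNA.
miR-106a-5p, chrX:52742541-52742563, minus strand: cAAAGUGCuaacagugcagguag
miR-20b-5p, chrX:52742159-52742181, minus strand: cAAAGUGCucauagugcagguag
miR-363-3p, chrX:52741697-52741718, minus strand: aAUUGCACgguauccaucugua
miR-92a-3p, chrX:52741854-52741874, minus strand: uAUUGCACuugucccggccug

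The seed of miR-106a-5p is that of miR-20b-5p, and the seed of miR-363-3p is that of miR-92a-3p, so both seeds of the members also occur in cluster miRNAs whose probe sets did not pass the limits.

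Promoter windows of 300 bases, from 250 before to 50 after a start listed for the gene (RefSeq, GRCm38.p6), were given for 47 of the members, in 62 windows. Such a start can lie inside the gene. On the plus strand, the Ppp4r4 window begins at 103532315 and the gene at 103532250. The Vmn1r14 window begins at 57233189 and the gene at 57226155. The CpG content of the members was close to that of all genes. The median was 17 CG dinucleotides per gene (window with the most CG) for the members and 16 for 15563 genes of the array. At most 10 were found in 16 of the 47 members (34.0%, against 37.6% of all), and at least 30 in 11 (23.4%, against 18.7%). The set thus held both a CpG-dense promoter such as that of Ppp4r4, a regulatory subunit of protein phosphatase 4, with 44 CG in the window, and one without any CG, that of the vomeronasal receptor gene Vmn1r14. The 250 bases before such a start are shown for Ppp4r4 and for the X-linked germ cell gene Tex13b, with 13 CG in its window. Every CG is in capitals, because CpG is the site these cells cannot methylate in full.
Ppp4r4, chr12:103532315-103532564, plus strand: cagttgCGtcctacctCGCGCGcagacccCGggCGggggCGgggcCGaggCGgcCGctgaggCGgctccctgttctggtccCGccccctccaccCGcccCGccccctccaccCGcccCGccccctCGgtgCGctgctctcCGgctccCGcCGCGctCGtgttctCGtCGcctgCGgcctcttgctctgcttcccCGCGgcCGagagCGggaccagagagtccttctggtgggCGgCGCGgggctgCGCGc
Tex13b, chrX:140813434-140813683, minus strand: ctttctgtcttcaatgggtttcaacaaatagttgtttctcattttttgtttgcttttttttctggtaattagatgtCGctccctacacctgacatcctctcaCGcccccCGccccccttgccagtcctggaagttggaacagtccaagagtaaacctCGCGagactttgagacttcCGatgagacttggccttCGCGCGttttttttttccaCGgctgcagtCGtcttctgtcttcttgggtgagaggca

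Median day 4 minus day 0 differences in Dnmt1-/- cells were 0.80 for the 16 members with at most 10 CG, 0.50 for the 20 members between and 0.86 for the 11 with at least 30, a description that gives no order by CpG content.

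A search on both strands took in 6 short motifs. GGAATG, bound by TEAD factors, occurred in 12 of 62 member windows (19.4%) and in 13.2% of 19116 windows of all genes, CTTTGAT (TCF/LEF) in 2 (3.23%, against 3.19%), ATGCAAAT (octamer) in 3 (4.84%, against 1.59%), TTCNNNGAA (STAT) in 4 (6.45%, against 7.68%) and AGGTGTGA (T-box) in none (against 1.10%). The core of the interferon-stimulated response element, a pair of GAAA with 2 free bases between, occurred in 10 windows (16.1%, against 3.27%) of 9 members: Cldn7, Dhrs3, Ebf1, Erap1, Gbp2b, Gbp3, Gpm6a, Irgm1 and Mecom. The windows of a gene can overlap, and a match of letters is not a binding site. The 250 bases before a listed start are shown for Irgm1, with the largest TKO difference, and for the adjacent guanylate-binding protein genes Gbp3 and Gbp2b. The matches to this core are in capitals. In Irgm1 and Gbp3, 2 matches overlap.
Irgm1, chr11:48871421-48871670, minus strand: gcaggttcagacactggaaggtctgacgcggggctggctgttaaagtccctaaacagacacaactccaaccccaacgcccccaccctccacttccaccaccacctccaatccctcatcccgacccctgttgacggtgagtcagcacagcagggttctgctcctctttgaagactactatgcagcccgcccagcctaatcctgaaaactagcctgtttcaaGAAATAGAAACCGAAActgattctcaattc
Gbp3, chr3:142559794-142560043, plus strand: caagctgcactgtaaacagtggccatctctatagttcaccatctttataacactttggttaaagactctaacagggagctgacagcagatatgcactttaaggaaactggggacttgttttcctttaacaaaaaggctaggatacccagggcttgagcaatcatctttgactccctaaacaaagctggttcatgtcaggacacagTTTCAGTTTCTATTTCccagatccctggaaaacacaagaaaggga
Gbp2b, chr3:142594597-142594846, plus strand: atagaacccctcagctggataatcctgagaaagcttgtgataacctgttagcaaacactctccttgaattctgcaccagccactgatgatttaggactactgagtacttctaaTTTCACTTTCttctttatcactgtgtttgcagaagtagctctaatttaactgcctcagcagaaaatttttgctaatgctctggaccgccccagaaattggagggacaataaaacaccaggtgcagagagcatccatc

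The levels of the 60 members over the 9 groups had one shape in TKO cells and another in wt cells, the first parts of which were fixed by the selection. The median of the members was 6.54 in wt ESCs, 5.87 in Dnmt1-/- ESCs and 5.48 in TKO ESCs. Among day 4 EBs it was 6.06 for wt, 6.64 for Dnmt1-/- and 7.49 for TKO. At day 16 the 3 medians lay close together, at 6.74, 6.60 and 6.61. Over all probe sets the median of the group means stayed between 5.78 and 5.87.

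The selection favoured a low level in TKO ESCs and a high level in TKO EBs at day 4. The counts that follow are thus descriptions, in part fixed by that choice, and not tests. TKO ESCs held the lowest of the 9 group means for 36 members, and TKO EBs at day 4 the highest for 40. In ESCs the order wt above Dnmt1-/- above TKO was found for 41 members, and in day 4 EBs the reverse order for 46. For 25 members the TKO mean at day 4 was within 1 of the wt mean in ESCs, so that the TKO increase ended near a level that wt ESCs already had, whereas for 35 it lay at least 1 above. Between day 4 and day 16 the TKO mean fell back for 55 members, by a median of 1.12 on the log2 scale, and for the same number the level at day 16 was still above that of TKO ESCs (median difference 0.94). A high level at day 16 marked 14 other profiles, in which wt EBs at day 16 were the highest of the 9 groups: Igfbp3, Nnat, Ccn1, Anxa3, Adgrl4, Plagl1, Lmo4, Dhrs3, Mal2, Cldn7, Tspan8, Mecom, Met and Spon1.

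**Figure D1:**
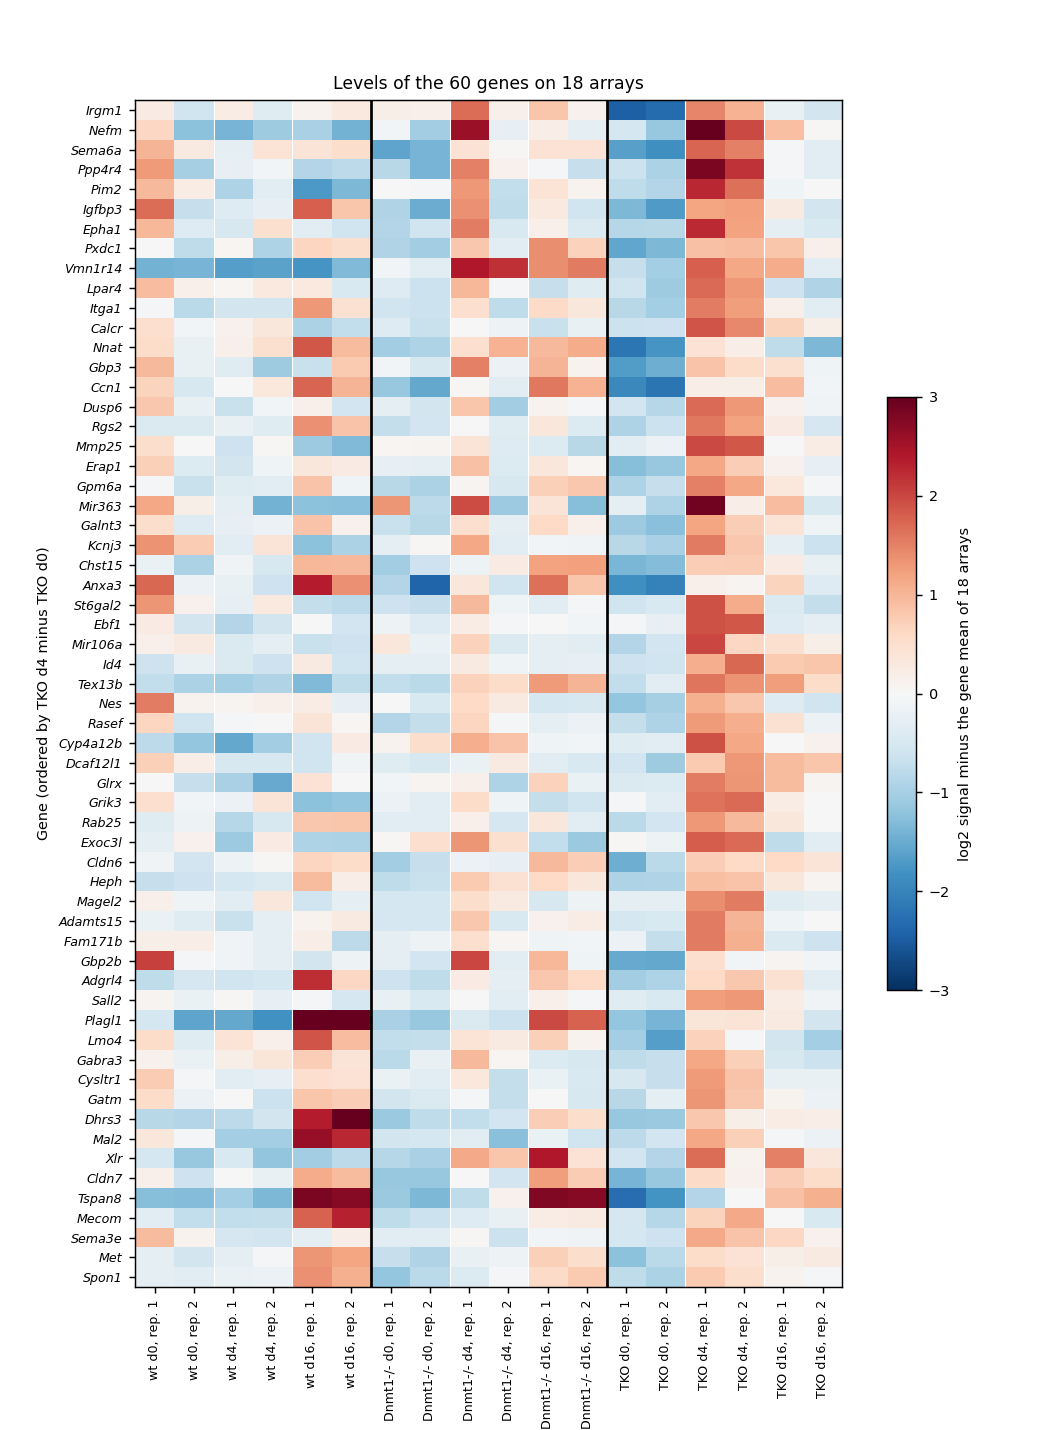
Heat map of the 60 members (rows, ordered by the TKO d4 minus TKO d0 difference) on the 18 arrays (columns), as log2 signal minus the mean of the gene over all arrays, with colours saturated at 3. The TKO d4 columns stand high and the TKO d0 columns low, as the selection asked. Replicate 1 of wt d0 and of Dnmt1-/- d4 differ from their replicate 2 over many rows.

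The 2 arrays of some groups stood apart for these genes. In wt ESCs replicate 1 was above replicate 2 for 51 of 60 members, with a median difference of 0.69, and in Dnmt1-/- EBs at day 4 for 52 members, with a median difference of 0.66. In TKO ESCs it was above for 30 members (median difference 0.0024). The wt limit of the selection used the mean of both wt ESC arrays. Within replicate 1, wt d4 was above wt d0 for 11 of the 60 members (median difference -0.62), and within replicate 2 for 37 (median difference 0.11). The median of TKO ESCs minus wt ESCs was -1.15 within replicate 1 and -0.46 within replicate 2. Over all probe sets the median difference between the replicates was at most 0.03 in size in every group. The mean level of 10 pluripotency genes (Pou5f1, Nanog, Sox2, Zfp42, Esrrb, Klf4, Tfcp2l1, Utf1, Tdgf1 and Dppa5a) was 8.82 on replicate 1 and 7.54 on replicate 2 of Dnmt1-/- d4, and 9 of the 10 were higher on replicate 1. These 10 genes had a mean of 7.30 and 7.31 on the wt d4 arrays and of 9.59 and 9.99 on the TKO d4 arrays. In ESCs of the 3 lines the range was 10.45 to 10.85. Their part in the member levels was not tested. None of the 10 is a member.

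For the mutated genes, Dnmt1 had means of 9.18 to 9.69 in the wt groups, 8.55 to 8.71 in Dnmt1-/- and 8.41 to 8.58 in TKO, and Dnmt3a 8.14 to 9.16 in wt against 6.56 to 7.54 in TKO. Dnmt3b was at 9.90, 9.37 and 7.28 in wt and at 7.39, 8.73 and 7.61 in TKO at day 0, 4 and 16. Such a probe set spans the whole transcript, including exons outside a deletion. Among other marker lists, the 12 endothelial genes, of which the adhesion receptor gene Adgrl4 is a member, had array means of 6.49 and 6.95 in TKO d4 against 6.0 and 5.89 in wt d4 and 6.29 and 6.48 in Dnmt1-/- d4. The 9 neural progenitor genes, of which Nes is a member, had 6.20 and 6.10 in TKO d4, 5.73 and 5.80 in wt d4, and 5.77 and 5.79 in Dnmt1-/- d4. In ESCs these 9 genes had 6.24 and 6.09 in wt and 5.98 and 6.0 in TKO. The means of both lists include a member chosen for its TKO rise, so they are descriptions in part fixed by that choice. The macrophage, cardiac, trophoblast, primitive erythroid and visceral endoderm lists held no member.

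Irgm1, an interferon-inducible GTPase of cell-autonomous immunity, had the largest TKO difference, 3.63. Its level was 4.79 and 4.94 on the arrays of TKO ESCs, 8.71 and 8.28 in TKO d4 and 7.03 and 6.70 in TKO d16. In wt cells it was 7.49 and 6.65 at day 0, 7.46 and 6.88 at day 4, and 7.35 and 7.55 at day 16. In Dnmt1-/- cells it was 7.43 and 7.39, then 8.91 and 7.39, then 8.08 and 7.38. The TKO ESC arrays were thus the only ones under 6, and by day 16 the 3 genotypes were between 6.70 and 8.08.

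Nefm, the medium neurofilament subunit of neurons, reached 9.30 and 8.17 in TKO d4 from 5.66 and 5.05 in TKO ESCs, and was at 7.11 and 6.22 in TKO d16. In wt cells it was 6.82 and 4.96 at day 0, 4.79 and 5.12 at day 4, and 5.21 and 4.77 at day 16. In Dnmt1-/- cells it was 6.11 and 5.16 at day 0, 8.79 and 5.95 at day 4, and 6.38 and 5.93 at day 16. Replicate 1 of Dnmt1-/- d4 was in the TKO range, while replicate 2 was not.

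Sema6a, a transmembrane semaphorin that guides axons and cells, went from 5.82 and 5.61 in TKO ESCs to 9.20 and 8.98 at day 4 and to 7.39 and 7.10 at day 16. It was 8.47 and 7.71, 7.15 and 7.86, and 7.84 and 7.97 in wt cells at day 0, 4 and 16. In Dnmt1-/- cells it was 5.88 and 6.07 at day 0, 7.89 and 7.49 at day 4, and 7.90 and 7.89 at day 16. Both mutant ESC lines were therefore below both wt ESC arrays. Of the Dnmt1-/- EBs, both day 16 arrays and replicate 2 of day 4 were between the wt arrays of the same day, and replicate 1 of day 4 was above both.

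For Ppp4r4 the TKO arrays held 5.33 and 5.02 at day 0, 8.78 and 8.13 at day 4, and 5.93 and 5.65 at day 16. The wt ESC arrays differed from each other, with 7.25 and 4.97, and wt EBs held 5.73 and 5.89 at day 4 and 5.08 and 5.18 at day 16. Dnmt1-/- cells held 5.15 and 4.58, then 7.48 and 6.10, then 5.90 and 5.29. All day 16 arrays were between 5.08 and 5.93, below every TKO d4 array.

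Of the other leading members, only Vmn1r14 was called higher in Dnmt1-/- d4 than in Dnmt1-/- ESCs in the test given below. Vmn1r14 was at 2.08 to 2.52 on all 6 wt arrays, at 3.77 and 3.54 in Dnmt1-/- ESCs, 6.24 and 6.04 in Dnmt1-/- d4, 5.25 and 5.42 in Dnmt1-/- d16, 3.15 and 2.82 in TKO ESCs, 5.64 and 5.0 in TKO d4 and 4.96 and 3.50 in TKO d16. Every mutant array was above every wt array for this receptor gene, which belongs to a large family of near copies whose probes may share transcripts. Pim2, a serine/threonine kinase that promotes survival, was at 8.20 and 8.08 in TKO ESCs, 11.21 and 10.61 in TKO d4 and 8.83 and 8.96 in TKO d16. In Dnmt1-/- cells Pim2 was at 8.96 and 8.89, 10.25 and 8.22, and 9.37 and 9.07, and in wt cells at 9.93 and 9.17, 8.04 and 8.61, and 7.23 and 7.62. The wt level of Pim2 thus went down over the course while that of TKO peaked at day 4.

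Igfbp3, which binds insulin-like growth factors outside the cell, was at 7.31 and 6.96 in TKO ESCs and 9.86 and 9.89 in TKO d4, a level also seen on 1 of the wt ESC arrays (10.35 and 7.98) and in wt d16 (10.46 and 9.49). The 2 Dnmt1-/- d4 arrays were apart for Igfbp3, at 10.03 and 7.89. The ephrin receptor gene Epha1 was at 6.11 and 6.13 in TKO ESCs, 9.20 and 8.17 in TKO d4, and 6.68 and 6.51 in TKO d16. In Dnmt1-/- d4 it was at 8.49 and 6.49. Its day 16 levels were 6.61 and 6.35 in wt and 7.11 and 6.52 in Dnmt1-/- EBs, so the genotypes overlapped there.

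Among the rest of the leading 12, Pxdc1, which codes for a PX domain protein, was at 7.20 and 7.25 in TKO d4, and all day 16 arrays of the 3 genotypes were between 6.47 and 7.71. Lpar4, a receptor for lysophosphatidic acid, was at 9.49 and 9.09 in TKO d4 and at 6.89 to 8.08 on all day 16 arrays. Itga1, the integrin alpha subunit of a collagen receptor, was at 7.48 and 7.20 in TKO d4 and, at day 16, highest in wt with 7.26 and 6.41. The calcitonin receptor gene Calcr was at 7.72 and 7.28 in TKO d4, and its day 16 order was the opposite, with 4.88 and 5.08 in wt, 5.17 and 5.60 in Dnmt1-/- and 6.49 and 6.01 in TKO.

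**Figure D2:**
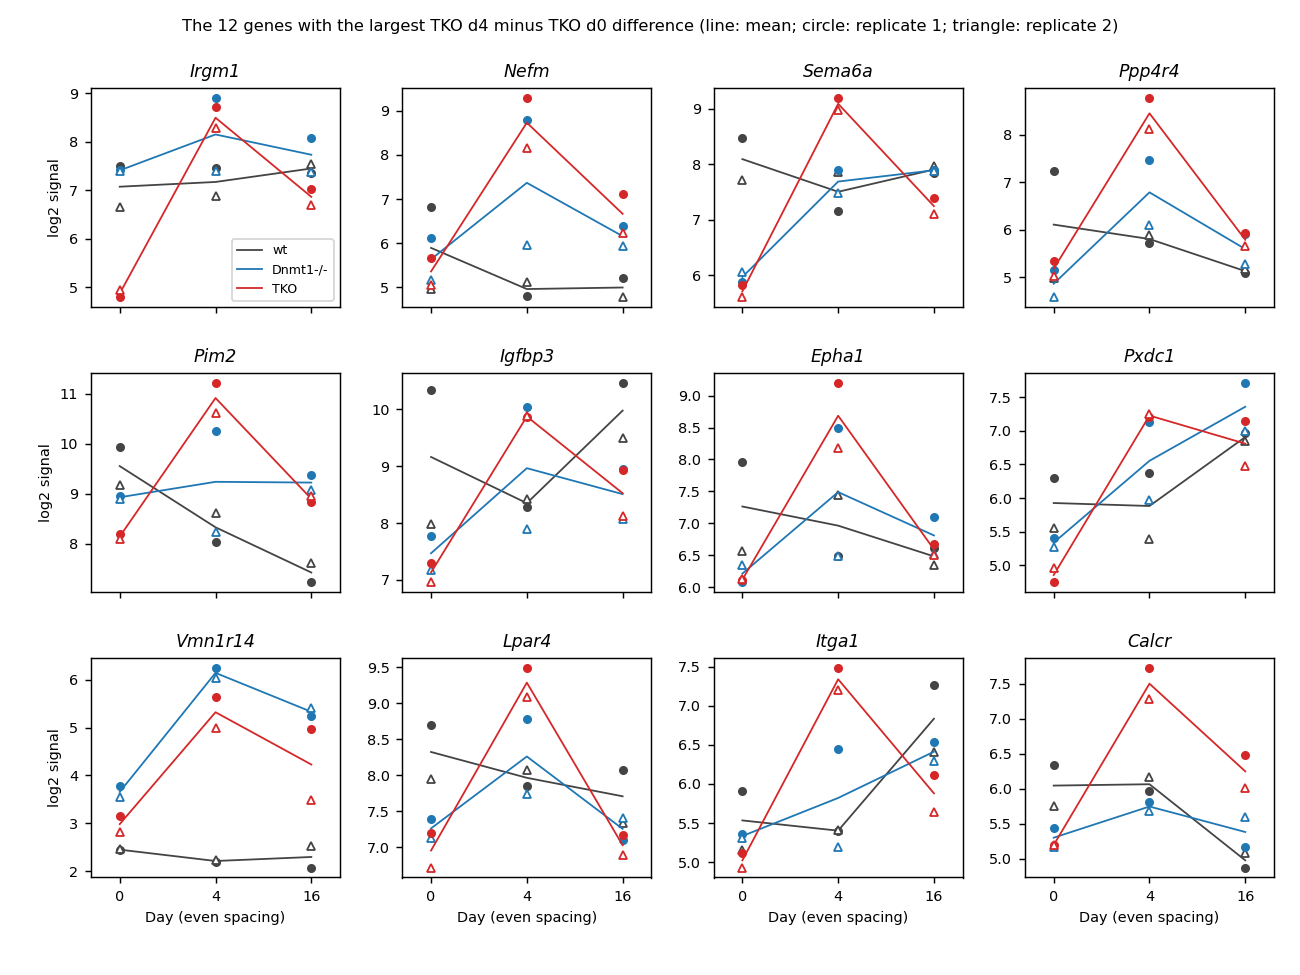
Log2 signal (vertical axis) against day (0, 4 and 16, evenly spaced) for the 12 members with the largest TKO d4 minus TKO d0 difference; lines join the group means, circles are replicate 1 and triangles replicate 2. In TKO all 12 peak at day 4, Dnmt1-/- lies between wt and TKO at day 4 for most, and the wide gaps between circle and triangle are in wt d0 and Dnmt1-/- d4.

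At the edges of the limits, Spon1 (TKO difference 1.51) and Met (1.52) were just inside and the plexin gene Plxnc1 and Aff3 (each 1.5 when rounded, but under the limit) just outside. On the wt side, Gabra3 and Cldn6 (each with a wt difference of 0.29) were just inside and Frmd4b and Kcng3 (each 0.30 when rounded, but over the limit) just outside.

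The comparison of Dnmt1-/- EBs at day 4 with Dnmt1-/- ESCs asks whether the members also move in cells that lack Dnmt1 alone, and the selection used none of the 4 arrays compared. The test called 6 members higher (a change of 1 or more on the log2 scale, with a limma false discovery rate below 0.05), and 0 lower. That is 10% of the members, beside 2.56% of all probe sets called higher and 2.05% called lower. The median change of the members was 0.68, against -0.02 over all probe sets. Both day 4 arrays were above both day 0 arrays for 40 members, where 22.4% of all probe sets did so. A fit with the replicate number as a block called more members higher, as given at the end. The labels do not say that this number marks a batch.

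The result differed between the 2 Dnmt1-/- arrays of day 4. Over the members, replicate 1 lay a median of 1.08 above the day 0 mean, and replicate 2 a median of 0.41. Replicate 1 is also the array with the higher mean of the pluripotency genes, 8.82 against 7.54.

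The 6 called members were Vmn1r14 (log2 change 2.49 ± 0.36, SE), Nnat (1.75 ± 0.33), Sema6a (1.72 ± 0.26), Tex13b (1.39 ± 0.24), Heph (1.34 ± 0.21) and Gabra3 (1.04 ± 0.28), with limma adjusted p from 0.000904 for Vmn1r14 to 0.0349 for Gabra3. The iron oxidase gene Heph was at 4.71 and 4.81 in Dnmt1-/- ESCs and at 6.27 and 5.94 at day 4, and at 4.97 and 5.04 in wt d4. Tex13b was at 4.23 and 4.18 in Dnmt1-/- ESCs and at 5.66 and 5.54 at day 4. Nnat lost its call without replicate 2 of Dnmt1-/- d4, and Gabra3 without replicate 1 of either group, after another centring or normalization of the arrays and in a fit of the 4 compared arrays alone. Of the 6, Heph, Tex13b and Gabra3 are X-linked.

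A further 13 members had a mean change over 1 without a call in the fit without a replicate block. The highest were those of Ppp4r4 (1.93 ± 0.59, adjusted p = 0.0635), Xlr (1.90 ± 0.61, 0.0742) and Nefm (1.73 ± 0.80, 0.239) in the limma fit. They were followed by Anxa3 (1.52), Igfbp3 (1.5), Gbp2b (1.28), Epha1 (1.28), Pxdc1 (1.22), Ccn1 (1.20), Rasef (1.10), Lmo4 (1.07), St6gal2 (1.07) and Lpar4 (1.0002), with limma adjusted p of 0.066 to 0.34. The day 4 arrays of Nefm, 8.79 and 5.95, were far apart. The 3 members below 0 were Glrx (-0.39), Mal2 (-0.25) and Mmp25 (-0.06), none of which passed the test.

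**Figure D3:**
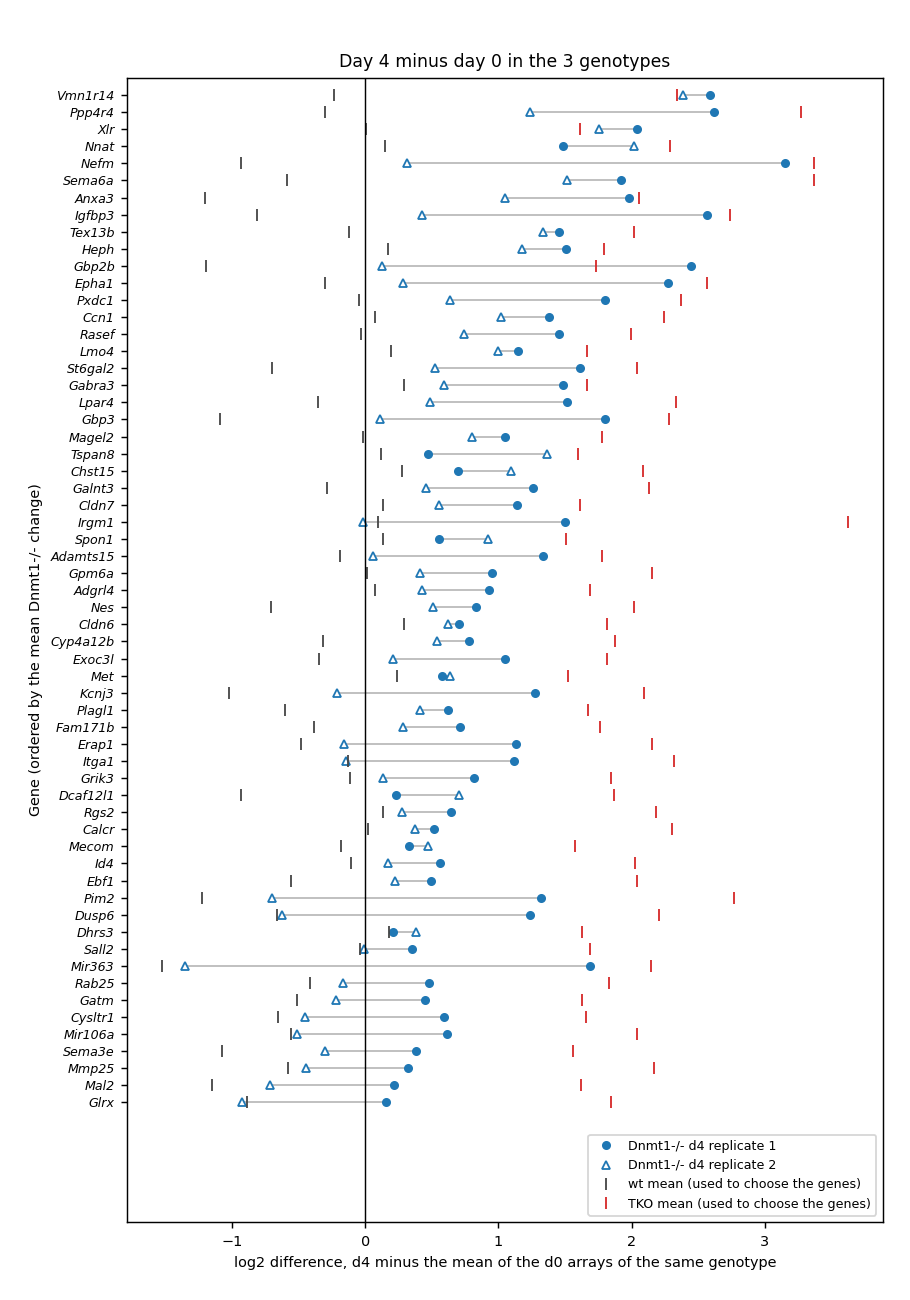
Day 4 minus the mean of the day 0 arrays of the same genotype (horizontal axis, log2) for each of the 60 members (vertical axis, ordered by the Dnmt1-/- mean change); circles are replicate 1 and triangles replicate 2 of Dnmt1-/- d4, and grey and red ticks are the wt and TKO means that chose the genes. The circles have a median of 1.08 and the triangles a median of 0.41.

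From day 4 to day 16 in Dnmt1-/- EBs, 6 members were called higher and 1 lower, beside 2.39% and 0.313% of all probe sets, with a median change of -0.01 (-0.07 over all). The tetraspanin gene Tspan8, an epithelial surface protein, went from 5.89 and 6.78 to 9.43 and 9.38 (3.07 ± 0.30, limma adjusted p = 8.47e-05). The imprinted zinc finger gene Plagl1 went from 7.32 and 7.11 to 9.74 and 9.52 (2.42 ± 0.30, 0.000487). Smaller rises were called for Cldn7 (1.30 ± 0.27), Dhrs3 (1.27 ± 0.29), Chst15 (1.16 ± 0.24) and Cldn6 (1.07 ± 0.22), with limma adjusted p of 0.0143 to 0.0239. Exoc3l, related to a subunit of the exocyst, was the member called lower, from 8.56 and 7.71 to 6.50 and 6.13 (-1.82 ± 0.38, 0.0148). Plagl1 and Tspan8 kept their calls whichever array was left out, and the 5 others did not. In a fit of the 4 compared arrays alone the calls of Chst15, Cldn6, Cldn7 and Exoc3l were lost. Leaving out replicate 1 of Dnmt1-/- d4 or of Dnmt1-/- d16 gave 3 called higher, and the count of called lower was 0 without replicate 1 of d4 or either d16 array and 3 without replicate 2 of d4.

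At day 16 the members divided into a group lower and a group higher in TKO than in wt EBs. A total of 12 were called lower in TKO (20% of the members, beside 3.43% of all probe sets) and 6 higher (10%, beside 2.40%), with a median difference of -0.24 (0.05 over all). Those lower in TKO were Plagl1, Dhrs3, Mal2, Nnat, Mecom, Lmo4, Tspan8, Adgrl4, Rgs2, Spon1, Gabra3 and Met. Those higher were Tex13b, Vmn1r14, Mmp25, Grik3, Calcr and Dcaf12l1. No arrays overlapped between the 2 genotypes for any of these 18, which adds no support to calls made on the same arrays. The calls of Adgrl4, Dcaf12l1, Gabra3, Met, Mmp25 and Rgs2 were lost on leaving out 1 or more of the 4 arrays, and the 12 others were not. Adgrl4 also lost its call under adjustment over the 5 comparisons together, after centring and after quantile normalization. In a fit of the 4 arrays alone, Adgrl4, Calcr, Dcaf12l1, Gabra3, Met, Rgs2 and Vmn1r14 were not called.

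Plagl1 had the largest difference at day 16. The wt arrays held 11.22 and 11.26, the Dnmt1-/- arrays 9.74 and 9.52 and the TKO arrays 8.01 and 7.20, and the limma difference between TKO and wt was -3.63 ± 0.30 (adjusted p = 6.14e-06). The 3 genotypes did not overlap, and both mutants differed from wt and from each other by the test. Dhrs3, a reductase that returns retinaldehyde to retinol, was at 9.35 and 10.45 in wt, 7.71 and 7.51 in Dnmt1-/- and 7.22 and 7.18 in TKO (TKO minus wt -2.70 ± 0.29, adjusted p = 5.45e-05). Mal2, a membrane protein of epithelial transcytosis, was at 8.92 and 8.57 in wt, against 6.10 and 5.71 in Dnmt1-/- and 6.28 and 6.13 in TKO (-2.54 ± 0.27, 5.19e-05). For Mal2 all 4 mutant arrays were between 5.71 and 6.28, whereas for Plagl1 the mutants stood apart.

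Mecom, a zinc finger transcription factor of blood stem cells and kidney, was at 6.96 and 7.49 in wt, 5.40 and 5.46 in Dnmt1-/- and 5.16 and 4.74 in TKO (TKO minus wt -2.28 ± 0.23, limma adjusted p = 2.63e-05). These values are from the Mecom probe set that passed the limits, and those of its other probe set are not given. Nnat, the imprinted proteolipid gene neuronatin, had the same order of means with another spacing. It was at 9.68 and 8.77 in wt, 8.80 and 8.94 in Dnmt1-/- and 7.05 and 6.46 in TKO (TKO minus wt -2.47 ± 0.33, limma adjusted p = 0.000274). In Nnat and in Tspan8 (9.48 and 9.39 in wt, 9.43 and 9.38 in Dnmt1-/-, 7.53 and 7.71 in TKO) it was TKO that stood apart.

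In the other direction, Tex13b was at 3.66 and 4.22 in wt, 6.25 and 6.01 in Dnmt1-/- and 6.24 and 5.52 in TKO (TKO minus wt 1.94 ± 0.24, limma adjusted p = 0.000165). Vmn1r14 was higher by 1.93 ± 0.36 (0.0033). Mmp25, a membrane-bound matrix metalloproteinase, was at 5.55 and 5.31 in wt and 6.64 and 6.88 in TKO (1.33 ± 0.27). The kainate receptor gene Grik3 (1.30 ± 0.25), Calcr (1.27 ± 0.24) and the X-linked gene Dcaf12l1 (1.24 ± 0.25) were higher by similar amounts, with adjusted p of 0.00306 to 0.00586 for these 4.

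Between Dnmt1-/- and wt EBs at day 16, 3 members were called higher and 5 lower, beside 1.53% and 1.36% of all probe sets, with a median difference of -0.02 (-0.03 over all). Those lower were Mal2 (-2.84 ± 0.27, limma adjusted p = 4.03e-05), Dhrs3 (-2.29 ± 0.29), Mecom (-1.79 ± 0.23), Plagl1 (-1.61 ± 0.30) and Rgs2 (-1.15 ± 0.29, 0.0371). Those higher were Vmn1r14 (3.04 ± 0.36, 0.00027), the lymphocyte-regulated X-linked gene Xlr (2.34 ± 0.61, 0.0427) and Tex13b (2.19 ± 0.24, 0.000137). Xlr was at 2.87 and 3.14 in wt, 6.32 and 4.37 in Dnmt1-/- and 5.44 and 4.26 in TKO d16, and its probe set may take signal from near copies of the Xlr family. In a fit of the 4 arrays alone Dhrs3, Rgs2 and Xlr were not called, nor was Rgs2 after centring or quantile normalization. Plagl1, Rgs2 and Xlr lost their calls on leaving out 1 or more arrays, and without replicate 2 of Dnmt1-/- d16, 3 members were called lower.

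The direct comparison of TKO with Dnmt1-/- EBs at day 16 called 1 member higher and 4 lower, beside 0.130% and 0.941% of all probe sets, with a median difference of -0.26 (0.06 over all). Lower in TKO were Nnat (-2.11 ± 0.33, limma adjusted p = 0.0073), Plagl1 (-2.02 ± 0.30, 0.00608), Tspan8 (-1.78 ± 0.30, 0.0116) and Chst15 (-1.21 ± 0.24, 0.0272), a sulfotransferase of chondroitin sulfate. Dcaf12l1 was higher (1.27 ± 0.25, 0.0241). None of the 5 calls survived the omission of every array in turn: 0 were lower without replicate 1 of Dnmt1-/- d16 or replicate 2 of TKO d16, 2 without replicate 2 of Dnmt1-/- d16, and Dcaf12l1 was not called without any one of the 4. A fit of the 4 arrays alone called none of the 5. These day 16 comparisons share arrays with one another and are not independent.

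**Figure D4:**
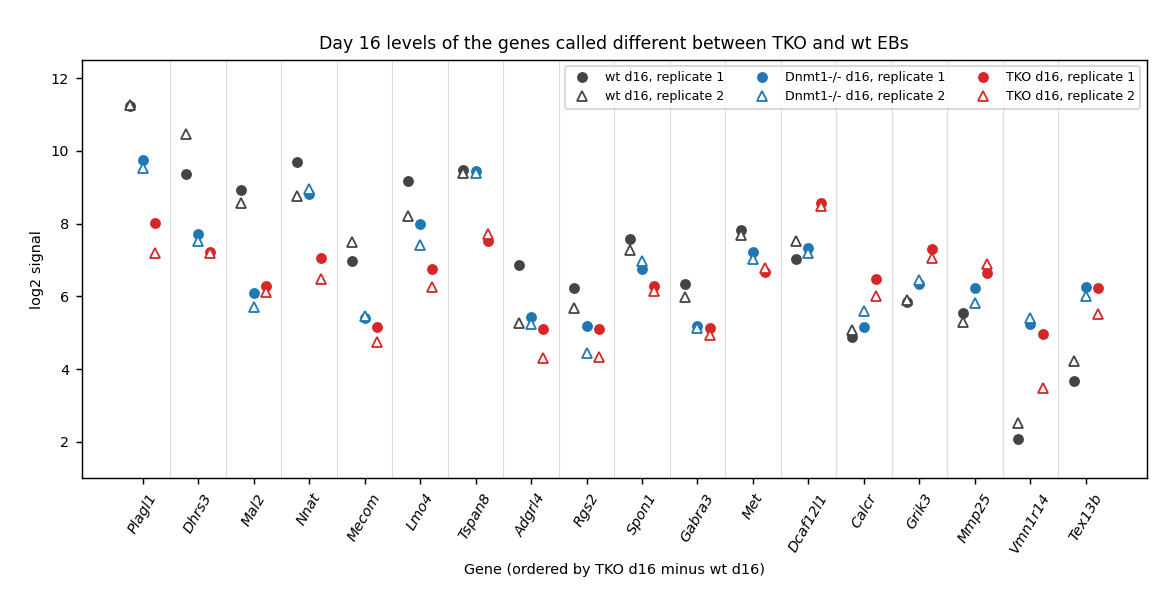
Log2 signal at day 16 (vertical axis) of the 18 members called different between TKO and wt EBs, ordered by the TKO minus wt difference; circles are replicate 1 and triangles replicate 2 of wt (grey), Dnmt1-/- (blue) and TKO (red). The 12 genes from Plagl1 to Met are lower in TKO and the 6 from Dcaf12l1 to Tex13b higher, with Dnmt1-/- beside TKO for Mal2 and Mecom and beside wt for Nnat and Tspan8.

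The members Irgm1, Gbp3, Gbp2b and Erap1 are interferon-inducible or serve antigen presentation, and all but Gbp2b are in the interferon and antigen presentation list. Gbp3 was at 4.90 and 5.10 in TKO ESCs and 7.43 and 7.13 in TKO d4, and in Dnmt1-/- d4 at 8.08 and 6.39. Its neighbour Gbp2b, with which probes may be shared, was at 4.72 and 4.69 in TKO ESCs, 6.73 and 6.14 in TKO d4, 8.22 and 5.91 in Dnmt1-/- d4 and 8.27 and 6.17 in wt ESCs. Erap1, an aminopeptidase that trims peptides for MHC class I, was at 5.21 and 5.36 in TKO ESCs and 7.65 and 7.23 in TKO d4. For these genes and Irgm1, TKO ESCs were the lowest of the 9 groups, and 0 of the 4 were called in any of the 3 comparisons between genotypes at day 16. Of 18 other measured genes of the list, 1 was called higher (B2m, 1.83) and 1 lower (Ddx58, -1.75) in Dnmt1-/- d4 minus d0. At day 16, 5 of the 18 were called lower in TKO than in wt and 3 lower in TKO than in Dnmt1-/-, and 0 higher in either.

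The neural and neuronal list held 6 members: Nefm, Nes, Gpm6a, Id4, Gabra3 and Grik3. Nes, the intermediate filament nestin, was at 5.98 and 6.13 in TKO ESCs, 8.20 and 7.93 in TKO d4 and 6.75 and 6.53 in TKO d16, and at 8.67 and 7.23 in wt ESCs. The membrane glycoprotein gene Gpm6a was at 4.78 and 5.0, 7.22 and 6.87, and 6.01 and 5.65 in TKO cells. Id4, an inhibitor of basic helix-loop-helix factors, stayed high in TKO, with 6.21 and 6.23, 7.93 and 8.57, and 7.62 and 7.68. Gabra3, a GABA receptor subunit, was at 4.84 and 4.91, 6.77 and 6.32, and 5.14 and 4.95, and Grik3 at 7.0 and 6.76, 8.69 and 8.76, and 7.30 and 7.04. All 6 were thus highest at day 4 in TKO cells. Of 22 other genes of the list, 5 were called higher and 5 lower in Dnmt1-/- d4 minus d0, among them Gria3 (1.96) and Nefh (-2.48), Pax6 (-2.13) and Tubb3 (-2.02).

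Of the FGF and ERK response list, Dusp6 and Rgs2 are members. Dusp6, the ERK phosphatase, was at 8.27 and 8.0 in TKO ESCs, 10.55 and 10.14 in TKO d4 and 8.99 and 8.74 in TKO d16. On the other arrays it was at 7.81 to 9.67. Rgs2, a regulator of G protein signalling, was at 3.93 and 4.20, 6.44 and 6.06, and 5.10 and 4.34 in TKO cells, and at 6.22 and 5.69 in wt d16. Of 24 other genes of the list, 1 was called higher (Dusp4, 2.20) and 4 lower, including Spry4 (-2.12), Fgf4 (-2.10) and Etv5 (-1.98), in Dnmt1-/- d4 minus d0.

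Sema6a, Epha1 and Sall2 are in the formative and primed epiblast list. Sall2, a zinc finger gene, was at 6.22 and 6.13 in TKO ESCs and 7.83 and 7.88 in TKO d4, and all other arrays were between 6.08 and 6.79. Of 20 other genes of the list, 8 were called higher and 1 lower in Dnmt1-/- d4 minus d0, among them Cer1 (3.15), Krt18 (2.82), Car14 (2.34) and Dkk1 (2.27). Sema6a and Epha1 are also in the list of Eph receptors, ephrins, semaphorins and plexins, together with the secreted semaphorin gene Sema3e. Sema3e was at 6.53 and 6.44 in TKO ESCs, 8.18 and 7.90 in TKO d4, and 7.99 and 7.16 in wt ESCs. Of 28 other genes of that list 11 were called higher and 2 lower, with Nrp1 (4.62), Sema6d (1.71), Epha2 (-1.74) and Sema4d (-1.69). Of the members in those 2 lists Sema6a was thus called, while Epha1 (1.28), Sema3e (0.04) and Sall2 (0.17) were not.

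The epithelial list held the tight junction genes Cldn6 and Cldn7, the vesicle trafficking gene Rab25 and the mucin-type glycosyltransferase gene Galnt3. Cldn6 was the brightest, at 8.81 and 9.47 in TKO ESCs, 11.02 and 10.89 in TKO d4, and 10.67 to 11.27 on all 6 day 16 arrays. Cldn7 was at 7.03 and 7.29, 9.0 and 8.55, and 9.17 and 8.98 in TKO cells and at 7.30 and 7.29 in Dnmt1-/- ESCs. Rab25 was at 6.59 and 6.80 in TKO ESCs and 8.70 and 8.35 in TKO d4, and Galnt3 at 5.53 and 5.37 and then 7.81 and 7.36. At day 16 in TKO, Rab25 was at 7.73 and 7.37 and Galnt3 at 7.05 and 6.49, for both genes above the TKO ESC arrays and below the TKO d4 arrays. Of 21 other genes, 6 were called higher and 3 lower in Dnmt1-/- d4 minus d0, led by the keratins Krt8 (2.85), Krt18 (2.82) and Krt19 (2.18) and by Grhl2 (-1.44).

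Igfbp3, Ccn1 and Anxa3 are in the contractile and YAP target list. Ccn1, a matricellular protein, was at 6.93 and 6.67 in TKO ESCs, 7.72 and 7.32 in Dnmt1-/- ESCs and 9.52 and 8.37 in wt ESCs. It then was at 9.06 and 9.02 in TKO d4, within the range of wt (8.85 and 9.18), and 8.77 to 10.59 on all day 16 arrays. Anxa3, a calcium-dependent membrane binding protein, was at 5.31 and 5.13 in TKO ESCs, 6.28 and 4.75 in Dnmt1-/- ESCs and 8.89 and 6.99 in wt ESCs, and at 7.32 and 7.24 in TKO d4. For both genes the TKO level at day 4 had come up to that of a wt group. Of 19 other genes of the list, 3 were called higher and 1 lower in Dnmt1-/- d4 minus d0, with Tpm1 (1.57), Col1a1 (1.43), Tpm4 (1.11) and Ajuba (-1.21).

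The imprinted and retrotransposon-derived list held Nnat, Magel2 and Plagl1. Nnat was at 5.66 and 6.04 in TKO ESCs, 6.77 and 6.91 in Dnmt1-/- ESCs and 8.37 and 7.60 in wt ESCs, and at 8.26 and 8.03 in TKO d4 and 8.32 and 8.86 in Dnmt1-/- d4. Magel2, a member of the MAGE family, was at 6.30 and 6.29 in TKO ESCs, 8.0 and 8.16 in TKO d4 and 6.22 and 6.32 in TKO d16, and at 5.99 to 7.11 on every array of the other genotypes. Plagl1 was at 6.59 and 6.35 in TKO ESCs and 8.11 and 8.16 in TKO d4. Of 14 other genes of the list, 6 were called higher and 0 lower in Dnmt1-/- d4 minus d0, with Peg3 (2.32), Peg10 (2.10), Rtl8c (1.87) and Ndn (1.62). The primitive streak and germ line lists held no member, and of their 19 and 25 genes 7 and 1 were called higher and 0 and 11 lower. The streak genes were led by Eomes (3.75), Mixl1 (3.34), Lhx1 (3.01) and Mesp1 (2.21), and the germ line genes by Mael (-2.67), Stk31 (-2.44), Smc1b (-2.39) and Piwil2 (-1.70).

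For the genes of these lists that are not members, TKO minus wt at day 16 gave 2 higher and 2 lower of 24 in the FGF and ERK list, 3 and 2 of 22 in the neural list, 6 and 2 of 20 in the epiblast list and 0 and 2 of 21 in the epithelial list. It gave 0 higher and 9 lower of 28 in the Eph and semaphorin list, 0 and 8 of 19 in the contractile list and 1 and 7 of 14 in the imprinted list, in which the members Nnat and Plagl1 were also lower. Of the germ line genes 18 of 25 were higher, and of the streak genes 0 of 19 were called.

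Within the miRNA cluster on the X chromosome, Mir363 was at 4.21 and 3.55 in TKO ESCs, 7.38 and 4.68 in TKO d4, and 5.41 and 4.00 in TKO d16. Mir106a was at 3.62 and 3.91, 6.49 and 5.11, and 4.97 and 4.66. The replicates differed widely for such short probe sets, and in Dnmt1-/- d4 Mir363 was at 6.43 and 3.39. The 3 other hairpins of the cluster with a single-symbol probe set had group means in TKO ESCs and TKO d4 of 3.71 and 4.73 (Mir20b), 2.99 and 4.02 (Mir19b-2) and 4.37 and 4.73 (Mir92-2). All 5 were thus higher at day 4, and 2 passed the limit.

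The other members fall into transcription factors, surface receptors, enzymes and matrix genes. Among transcription factors, Ebf1 of B cell and neural development was at 7.99 and 7.95 in TKO d4 and at 5.21 to 6.33 on all other arrays, and the LIM domain gene Lmo4 was at 6.26 and 5.63 in TKO ESCs and 7.99 and 7.23 in TKO d4. Among receptors, the leukotriene receptor gene Cysltr1 was at 6.54 and 6.11 in TKO d4 and at most 6.03 elsewhere, and Adgrl4 was at 5.23 and 5.46 in TKO d4 and 6.85 and 5.27 in wt d16. Met, the receptor of hepatocyte growth factor, was at 5.28 and 5.70 in TKO ESCs, 7.07 and 6.95 in TKO d4, and 7.83 and 7.68 in wt d16. Ebf1 was thus higher in TKO d4 than anywhere else, whereas Adgrl4 and Met had their highest mean in wt d16.

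Among channels and enzymes, the potassium channel gene Kcnj3 was at 7.53 and 6.80 in TKO d4 and 7.33 and 6.74 in wt ESCs, the sialyltransferase gene St6gal2 at 7.06 and 6.28 and 6.49 and 5.29, and Gatm, the first enzyme of creatine synthesis, at 7.71 and 7.17 and 6.92 and 6.21. The glutaredoxin gene Glrx was at 8.55 and 8.33 in TKO d4 and 7.97 and 7.09 in TKO d16, against 6.03 and 5.51 in wt d4. Cyp4a12b, a cytochrome P450 gene with a close copy, was at 6.92 and 6.19 in TKO d4 and at 6.12 and 5.87 in Dnmt1-/- d4, against 3.48 and 3.99 in wt d4. Among matrix and secreted proteins, Adamts15 was at 7.53 and 6.99 in TKO d4 and 5.30 to 6.79 elsewhere, and Spon1 at 6.97 and 6.71 against 7.57 and 7.26 in wt d16. Exoc3l was at 9.06 and 8.94, Rasef at 6.84 and 6.66, and Fam171b at 7.58 and 7.08 in TKO d4, each with the highest mean of the 9 groups there.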

How the data were processed

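Total RNA of 18 samples was hybridised to 18 arrays. The log2 values of probe sets were deposited by the authors after RMA (version, probe annotation and filters not given in the sources used here). They were used as deposited, with no filter on low values; every column matched a sample (0 unmatched). Array medians were 5.77 to 5.90, and 2 arrays per group limit the precision. Gene symbols came from the platform table and positions and promoters from RefSeq (GRCm38.p6).

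Group means of all 18 arrays were fitted by limma (version 3.58.1, R 4.3.3; lmFit, then contrasts.fit and eBayes, with 9 residual and 3.32 prior degrees of freedom). A probe set was called when its change was 1 or more on the log2 scale with a Benjamini-Hochberg adjusted p under 0.05 over 35512 probe sets of a comparison. Every adjusted p is limma's. Errors are SE of the fit. On simulated data for Dnmt1-/- d4 minus d0, 85 of 100 effects of 1.5 and 98 of 100 of 2.5 were found, with 3 false calls. The simulation drew independent noise for each probe set, with the same spread in all groups. For the members the 2 Dnmt1-/- d4 arrays differed by a median of 0.66, so these rates do not carry over to them. P-values rest on the spread between the 2 replicates of a group, pooled over all groups and moderated by eBayes, not on the compared groups alone. The 5 tested comparisons contrast no group that chose the members, but the 8 arrays of those groups enter the shared estimate of the spread, and so every error and p.

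The members, gene lists and alternatives were chosen with earlier results of these data known. Values are given for the 12 members with the largest TKO difference, called members, members in a list, threshold neighbours and up to 4 other called genes per list; further members were described after their values were seen. Alternatives were other adjustment, centring, quantile normalization, a fit of the compared arrays, a filter on dim probe sets, 1 probe set per gene, the replicate block, a variance trend in eBayes, other thresholds and omission of each array.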

Additional observations from a re-analysis of the deposited data

How the results depend on the processing

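With 2 arrays a group, counts of called members moved, and no called difference changed sign under the alternatives run, whereas the member medians of Dnmt1-/- d16 minus d4 and Dnmt1-/- minus wt d16, both near 0, took either sign. A false discovery rate over the 5 comparisons together called 2 members lower in Dnmt1-/- d16 minus d4 and 2 higher in TKO minus Dnmt1-/- d16. Centring gave 2 lower in the former and medians of 0.021 (Dnmt1-/- minus wt d16) and -0.2881 (TKO minus Dnmt1-/- d16). Quantile normalization gave 2 lower and a median of 0.0019 in Dnmt1-/- d16 minus d4, and a median of -0.22 in TKO minus wt d16. The fit of 4 arrays gave 3 higher and 0 lower in Dnmt1-/- d16 minus d4, 3 lower in Dnmt1-/- minus wt d16, and 0 either way in TKO minus Dnmt1-/- d16, and 20 of 44 single calls were lost. Omission of the dimmest 30% of probe sets, which left 55 of the members, and 1 probe set per gene, each gave 2 lower in Dnmt1-/- d16 minus d4 and 2 higher in TKO minus Dnmt1-/- d16, and the latter 10 higher in Dnmt1-/- d4 minus d0. The dim members taken out were Vmn1r14, Xlr, Adgrl4, Mir363 and Mir106a. Their calls went with them, so that 39 of the 44 single calls could be compared, and these were kept.

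Leaving out 1 array, counts of members called higher ranged from 5 to 12 in Dnmt1-/- d4 minus d0 (median 0.41 to 1.08, lower 0), 3 to 4 in Dnmt1-/- d16 minus d4 (lower 0 to 3, median -0.29 to 0.47), 5 to 6 in TKO minus wt d16 (lower 8 to 12, median -0.4014 to -0.0484), 2 to 3 in Dnmt1-/- minus wt d16 (lower 3 to 5, median -0.0785 to 0.084) and 0 in TKO minus Dnmt1-/- d16 (lower 0 to 4, median -0.4018 to -0.0865). The number of members ranged from 44 to 83, with 29 of 60 kept whichever array was left out. It was 202 with a TKO limit of 1 and 31 with a limit of 2.

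The replicate block called 14 members higher in Dnmt1-/- d4 minus d0 and 3 lower in Dnmt1-/- d16 minus d4, and lost none of the 44 single calls. The labels do not say that a replicate number marks a batch. The correlation of replicate 1 minus 2 between groups was 0.04 to 0.50 over 36 pairs of groups, at or under 0.1 in 4.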
